A study of Homo sapiens with 20 samples.

Results

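Condensin and cohesin are ring-shaped complexes built on SMC ATPases, and their subunits were followed here in tumour cells with acquired resistance to prexasertib, a drug that blocks CHK1 kinase. The genes were chosen by symbol: SMC2 and SMC4 (the ATPase pair of both condensins), NCAPD2, NCAPG and NCAPH (condensin I), NCAPD3 and NCAPG2 (condensin II), and SMC1A, SMC3 and RAD21 (cohesin). Of these 10 genes, 9 had a transcript cluster, the set of probes that the array assigns to a gene, among the 17709 clusters that carry exactly 1 gene symbol; RAD21 was not analysed here. Total RNA from cultured cells was measured on 20 Clariom S human arrays.

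The resistant NCI-H520 cells (squamous cell lung carcinoma, 3 arrays) were set against the parental, prexasertib-sensitive NCI-H520 cells (3 arrays). A line grown from a resistant SJCRH30 xenograft (pediatric alveolar rhabdomyosarcoma, 3 arrays) was set against a line grown from a parental, sensitive xenograft (3 arrays). Resistant Rh41 cells, from the same kind of tumour (5 arrays), were set against parental Rh41 cells (3 arrays). NCI-H520 and Rh41 were made resistant in culture with stepwise higher drug, whereas the SJCRH30 pair came from different mouse tumours, of which 1 had regrown after prexasertib and the other had received vehicle. Each NCI-H520 and SJCRH30 group is therefore a single line, and its spread is that between cultures. The study describes the Rh41 cultures as independent, each exposed to either DMSO or prexasertib. The SJCRH30 cultures were also passaged in prexasertib, by the study's description, and the sources used here do not state whether drug was in the medium of any line when RNA was taken.

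Values are log2 expression values. The 8 Rh41 arrays were normalized apart from the other 12 and have a narrower scale (SD of all values 1.99, against 2.99), so neither levels nor sizes of change in Rh41 are comparable with the other lines. Within every group, arrays correlated at 0.983 or more over all clusters. Muscle markers averaged 10.94 to 11.02 in resistant and 10.91 to 11.10 in parental SJCRH30 arrays, 8.63 to 8.72 in resistant and 8.67 to 8.74 in parental Rh41 arrays, and 5.16 to 5.51 in resistant and 5.12 to 5.17 in parental NCI-H520 arrays. Of 9 muscle markers, CHRNA1 rose (0.68, adjusted p = 0.0292) and MYOG fell (-0.87, adjusted p = 0.00459) in SJCRH30, while DES rose (0.86) and FGFR4 and MYOD1 fell (-0.78 and -0.62) in Rh41. NCI-H520 expressed SOX2 (means of 16.33 in resistant and 15.59 in parental arrays) and EPCAM (16.87 and 15.98), but the squamous keratins KRT5 (3.64 and 3.72) and KRT14 (3.91 and 4.24) were at low signal, and TP63 was not analysed here. The number of arrays limits the precision of every value.

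Condensin folds mitotic chromatin into loops and so compacts chromosomes for segregation. Condensin I reaches chromosomes after the nuclear envelope breaks down, while condensin II is nuclear throughout the cycle and starts compaction in prophase. Cohesin, in contrast, encircles sister chromatids from S phase to anaphase, shapes chromatin loops in interphase and helps to repair broken and stalled forks. Many genes of mitosis are transcribed late in the cycle through a promoter element named the cell cycle genes homology region (CHR), which binds the MuvB core of the DREAM and MYB-MuvB complexes, often together with CCAAT boxes that bind NF-Y, whereas genes of replication are more often controlled through E2F sites.

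The promoters of the genes are shown because the letters of the CHR recur in them. All 9 genes were found in the RefSeq promoter table (GRCh38.p14), where each window runs from 250 bases before to 50 bases after a start site and 4 genes have more than 1 start site, giving 13 windows. In the lines below, read 5′ to 3′ on the strand of the gene, capitals mark matches on either strand. The letters searched were TTTGAA for the CHR, TTTAAA for a CHR-like element, CCAAT for the CCAAT box and either TTTCCCGC or its variant TTTGGCGC for E2F. A CHR on the opposite strand appears as TTCAAA, and a CCAAT box there as ATTGG. Only windows with a match are shown, and those of SMC3 and SMC4 are left out. The other start sites of SMC2, NCAPD3 and SMC1A had no match and are not shown. SMC2 is shown at its first start site (chr9:104094059-104094358, + strand), NCAPD2 at chr12:6493852-6494151 (+), NCAPG at chr4:17810729-17811028 (+), NCAPH at chr2:96335516-96335815 (+), NCAPD3 at its second start site (chr11:134223918-134224217, -), NCAPG2 at chr7:158704755-158705054 (-) and SMC1A at its second start site (chrX:53422605-53422904, -).
SMC2: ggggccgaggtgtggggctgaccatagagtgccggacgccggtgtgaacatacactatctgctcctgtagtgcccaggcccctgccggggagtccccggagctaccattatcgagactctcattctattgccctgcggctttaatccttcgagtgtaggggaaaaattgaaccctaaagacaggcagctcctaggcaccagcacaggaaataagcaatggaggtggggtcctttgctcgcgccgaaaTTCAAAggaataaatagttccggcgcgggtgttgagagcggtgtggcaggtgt
NCAPD2: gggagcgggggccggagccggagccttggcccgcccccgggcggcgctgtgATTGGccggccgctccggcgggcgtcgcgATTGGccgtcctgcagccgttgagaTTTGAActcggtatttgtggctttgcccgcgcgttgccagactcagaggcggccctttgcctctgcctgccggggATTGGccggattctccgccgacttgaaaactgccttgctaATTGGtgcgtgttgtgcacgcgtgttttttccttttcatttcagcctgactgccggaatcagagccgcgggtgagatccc
NCAPG: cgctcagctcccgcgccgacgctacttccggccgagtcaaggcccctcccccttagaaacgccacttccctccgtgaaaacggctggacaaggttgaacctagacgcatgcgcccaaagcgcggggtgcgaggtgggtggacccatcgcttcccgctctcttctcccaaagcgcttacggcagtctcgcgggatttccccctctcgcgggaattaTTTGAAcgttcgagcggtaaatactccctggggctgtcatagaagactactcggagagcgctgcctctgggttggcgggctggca
NCAPH: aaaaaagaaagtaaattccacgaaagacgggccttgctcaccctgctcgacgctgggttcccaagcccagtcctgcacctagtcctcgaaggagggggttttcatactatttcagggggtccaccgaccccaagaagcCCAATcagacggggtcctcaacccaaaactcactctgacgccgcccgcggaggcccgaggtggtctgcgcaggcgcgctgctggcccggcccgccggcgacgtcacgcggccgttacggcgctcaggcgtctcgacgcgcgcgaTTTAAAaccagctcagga
NCAPD3: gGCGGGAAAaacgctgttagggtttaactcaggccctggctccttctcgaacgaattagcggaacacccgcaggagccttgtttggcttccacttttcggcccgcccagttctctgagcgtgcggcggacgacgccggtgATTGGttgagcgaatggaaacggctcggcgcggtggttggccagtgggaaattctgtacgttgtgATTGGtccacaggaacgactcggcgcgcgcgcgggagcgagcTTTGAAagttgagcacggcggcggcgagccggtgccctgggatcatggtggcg
NCAPG2: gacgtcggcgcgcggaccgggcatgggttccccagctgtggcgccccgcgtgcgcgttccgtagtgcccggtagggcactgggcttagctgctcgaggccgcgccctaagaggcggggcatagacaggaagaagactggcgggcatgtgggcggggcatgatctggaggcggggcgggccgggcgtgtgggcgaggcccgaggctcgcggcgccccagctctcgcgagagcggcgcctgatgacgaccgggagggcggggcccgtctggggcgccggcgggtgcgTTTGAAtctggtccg
SMC1A: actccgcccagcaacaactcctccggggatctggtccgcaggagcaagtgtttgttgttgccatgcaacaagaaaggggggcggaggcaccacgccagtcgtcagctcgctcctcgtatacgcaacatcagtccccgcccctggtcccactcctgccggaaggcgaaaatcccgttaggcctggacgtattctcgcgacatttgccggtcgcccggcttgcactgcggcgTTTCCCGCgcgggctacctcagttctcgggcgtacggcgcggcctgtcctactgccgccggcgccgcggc

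The letters TTTGAA stood in 7 of the 13 windows (53.8%), 1 window for each of 7 genes, against 15.2% of all 35116 promoter windows in the table. The genes without them were the cohesin gene SMC1A and the condensin I gene NCAPH, and NCAPH had TTTAAA 32 bases after its start site. Counted from the start site, the element began at base -35 in NCAPG and at base -3 in both NCAPD3 and SMC2. NCAPD2 had it at base -145, with 2 CCAAT boxes on the opposite strand to each side. CCAAT stood in 3 of the 13 windows (23.1%), those of NCAPD2, NCAPD3 and NCAPH, against 34.6% of all windows. An E2F match stood in 2 windows (15.4%), at base -20 from the second start site of SMC1A and at base -249 in NCAPD3, against 2.27% of all windows. These matches describe letters only; binding was not measured.

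**Figure D1:**
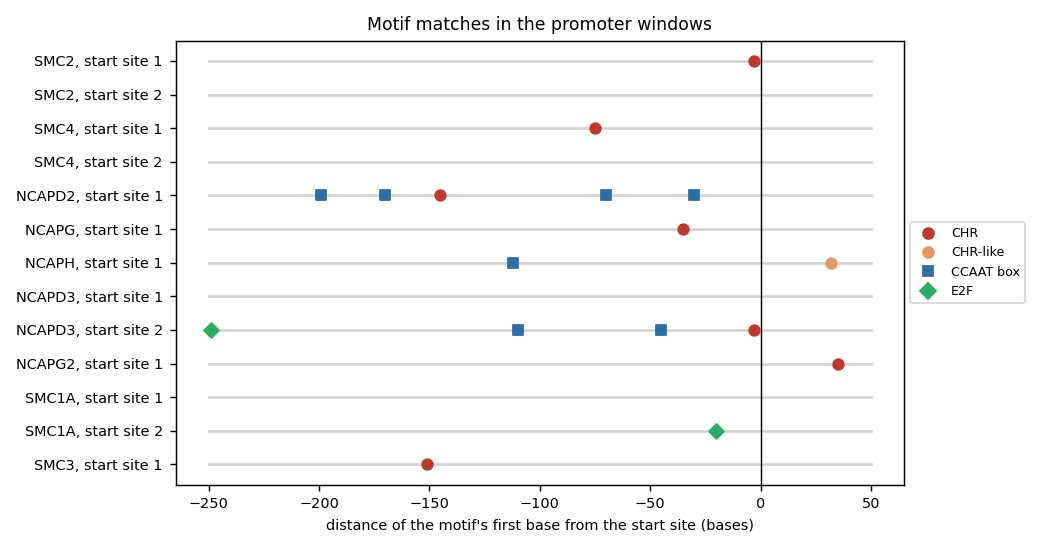
Motif matches in the 13 promoter windows of the 9 genes, with the distance of the first base of each match from the start site on the horizontal axis (bases, negative before the start) and 1 grey line per window. CHR letters lie in 7 windows of 7 genes, and SMC1A has an E2F match and no CHR letters.

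Resistant NCI-H520 cells had higher levels of nearly the whole group. With thresholds of 0.05 on the adjusted p and 1.5 on the fold, 8 of the 9 genes rose and 0 fell, with SMC4 the exception. Of all 17709 clusters tested in this line, 10.1% rose and 9.9% fell by the same rule. The median log2 change of the 9 genes was 1.29, beside 0.01 over all clusters. Changes are resistant minus parental on the log2 scale, with the moderated standard error (SE) of limma and the p-value adjusted over all clusters tested.

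The ATPases of condensin parted in this line. SMC2 stood at 10.54, 10.12 and 10.14 in the resistant NCI-H520 arrays, against 7.07, 7.35 and 7.37 in the parental arrays. The resistant arrays were all far above the parental ones, and the log2 change of 3.00 (SE 0.20, adjusted p = 1.63e-06), or 8.02-fold, was the largest of the 9 genes. SMC4, which pairs with SMC2 in every condensin, stood at 14.55, 14.33 and 14.29 in resistant arrays, against 14.36, 13.87 and 14.11 in parental arrays. Here the groups overlapped, and the difference of 0.28 (95% confidence interval from -0.15 to 0.71, adjusted p = 0.394) did not pass the test.

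The subunits found only in condensin I rose in NCI-H520. NCAPH, the kleisin that closes the ring of condensin I, stood at 11.34, 11.56 and 11.70 in resistant arrays, against 9.99, 9.66 and 9.77 in parental arrays. The groups did not overlap, and the change was 1.73 (SE 0.19, adjusted p = 7.07e-05). NCAPG, a HEAT-repeat subunit that binds DNA together with NCAPH, stood at 11.56, 11.44 and 11.29 in resistant arrays and at 10.34, 10.03 and 10.04 in parental arrays, a change of 1.29 (SE 0.19, adjusted p = 5.05e-04). NCAPD2, the other HEAT-repeat subunit of condensin I, stood at 10.14, 10.24 and 10.37 against 9.59, 9.59 and 9.54. Its arrays were also apart, but the change was the smallest that passed, at 0.68 (SE 0.18, adjusted p = 0.0180), and it missed the threshold without parental replicate 3 (adjusted p = 0.0608), without resistant replicate 3 (adjusted p = 0.0620) and, at a change of 0.55, with all 20 arrays normalized together.

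Both chosen subunits of condensin II rose as well. NCAPD3 stood at 11.68, 12.02 and 11.88 in resistant NCI-H520 arrays, against 10.29, 10.06 and 10.20 in parental arrays, a change of 1.67 (SE 0.19, adjusted p = 7.01e-05). NCAPG2 stood at 10.01, 10.10 and 10.02 in resistant arrays, against 9.01, 8.28 and 8.61 in parental arrays, a change of 1.41 (SE 0.21, adjusted p = 6.61e-04). The resistant arrays lay above the parental ones for both genes, and for NCAPG2 the parental arrays were the more spread. NCAPH2, the kleisin of condensin II, was not among the chosen genes and had a difference of -0.01 (SE 0.36, adjusted p = 0.993), with arrays of both groups widely spread (SD 0.68 in resistant and 0.61 in parental arrays).

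The ATPases of mitotic cohesin, SMC1A and SMC3, rose in this line too, but STAG1 and STAG2 did not. Of 8 measured subunits of cohesin, 2 of them at low signal, 2 rose and 1 fell, with a median change of -0.20. This list also holds SMC1B, RAD21L1, REC8 and STAG3 of meiotic cohesin, so its median is not that of mitotic cohesin. The gene that fell was STAG3, and those at low signal were SMC1B and RAD21L1. Over all clusters, 10.1% rose and 9.9% fell. STAG1 averaged 9.42 in resistant and 9.69 in parental arrays, and STAG2 averaged 13.25 and 13.46. SMC1A stood at 10.36, 10.28 and 10.04 in resistant NCI-H520 arrays, against 9.08, 9.11 and 9.17 in parental arrays, a change of 1.11 (SE 0.18, adjusted p = 0.00114). SMC3, its partner in the ring and the target of the acetylation that locks cohesin on chromatin, stood at 11.74, 11.81 and 11.59 in resistant arrays, against 11.21, 10.42 and 10.90 in parental arrays. Neither gene had overlapping groups. The change of SMC3 was 0.87 (SE 0.22, adjusted p = 0.0160), and it missed the threshold without parental replicate 2 (0.66, adjusted p = 0.0657), without resistant replicate 1 (adjusted p = 0.0511) or without resistant replicate 2 (adjusted p = 0.0551).

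**Figure D2:**
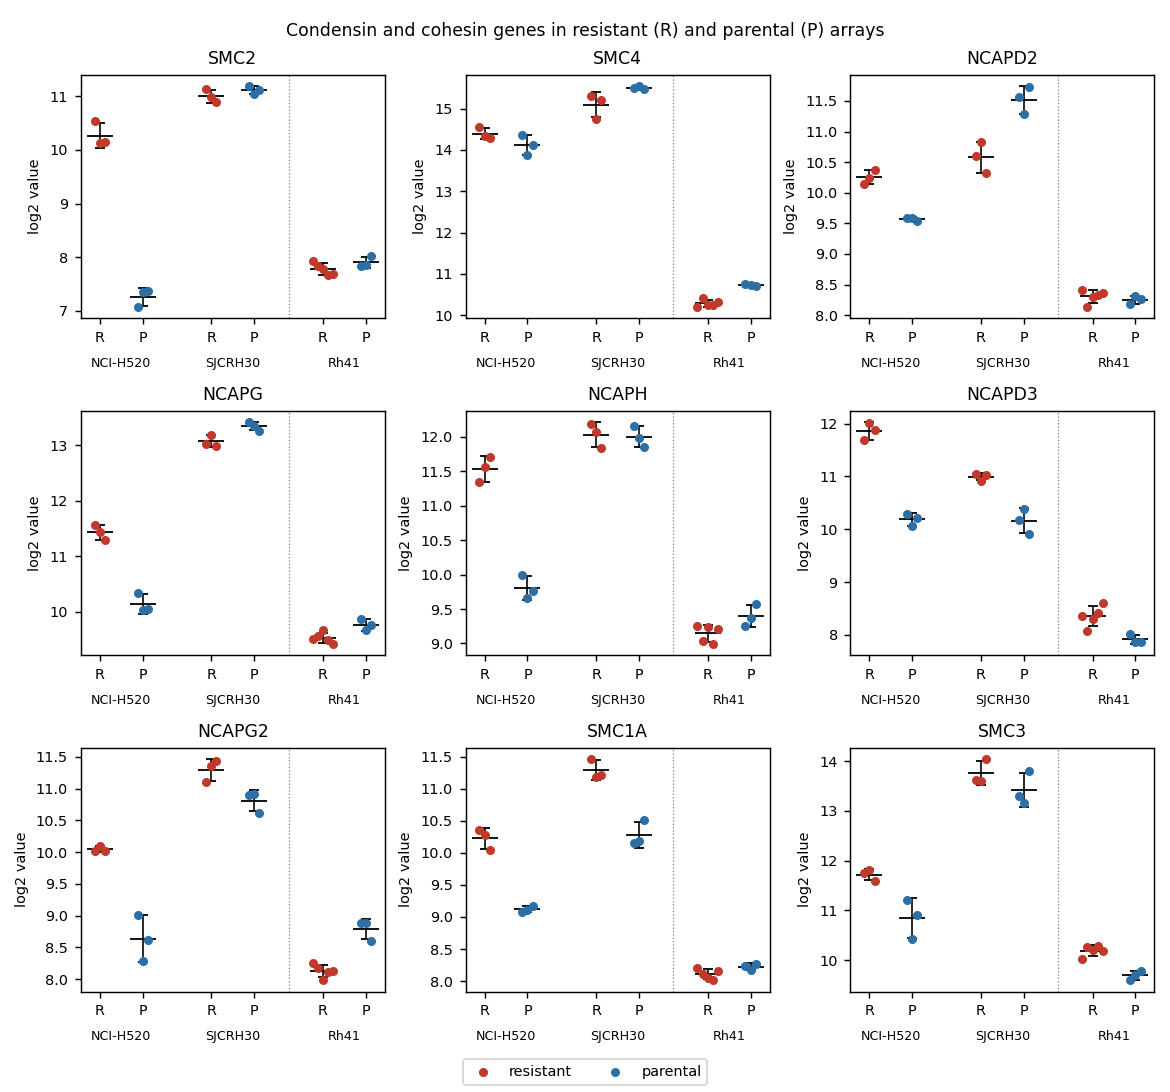
Log2 value of each gene (vertical axis) in every array, as points, with the mean and SD of the group in black; R is resistant and P is parental, and the Rh41 arrays to the right of the dotted line are on a narrower scale of their own. SMC2 lies between 10.12 and 10.54 in resistant and between 7.07 and 7.37 in parental NCI-H520 arrays, while its SJCRH30 groups overlap.

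In SJCRH30 the group did not move one way. SMC1A and NCAPD3 rose, NCAPD2 fell, and 6 of the 9 genes did not pass the test. Of all clusters tested in this line, 9.42% rose and 9.28% fell. The median change of the 9 genes was 0.03, beside 0.01 over all clusters.

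SMC1A had the largest change in SJCRH30. It stood at 11.46, 11.18 and 11.22 in the resistant arrays, against 10.15, 10.19 and 10.52 in the parental arrays, a change of 1.004 (SE 0.19, adjusted p = 0.00299). SMC3 stood at 13.63, 13.60 and 14.04 against 13.29, 13.15 and 13.81, so that its groups overlapped and the difference of 0.34 (interval from -0.14 to 0.83, adjusted p = 0.342) did not pass.

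The related HEAT-repeat subunits NCAPD2 and NCAPD3, which hold the same place in condensin I and II, went opposite ways in SJCRH30. NCAPD2 stood at 10.60, 10.82 and 10.32 in resistant arrays, against 11.56, 11.28 and 11.73 in parental arrays, and its change was -0.94 (SE 0.21, adjusted p = 0.00669). NCAPD3 stood at 11.04, 10.91 and 11.04 in resistant arrays, against 10.18, 10.38 and 9.91 in parental arrays, a change of 0.84 (SE 0.19, adjusted p = 0.00879). Neither gene had overlapping groups, and the changes of both passed the threshold whichever array was left out.

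Of the 6 genes that did not pass in SJCRH30, NCAPG2, SMC4 and NCAPG had groups that did not overlap. How many of all clusters were apart in this way was not counted, so this describes the arrays only. NCAPG2 stood at 11.10, 11.35 and 11.43 in resistant arrays, against 10.90, 10.91 and 10.61 in parental arrays, a difference of 0.49 (SE 0.19, adjusted p = 0.102). SMC4 stood at 15.31, 14.75 and 15.21 against 15.50, 15.55 and 15.46, a difference of -0.41 (SE 0.20, adjusted p = 0.187). NCAPG stood at 13.02, 13.19 and 12.99 against 13.41, 13.35 and 13.26, a difference of -0.27 (SE 0.18, adjusted p = 0.353). Every resistant array was therefore higher for NCAPG2 and lower for SMC4 and NCAPG, by amounts that the test did not separate from the spread. SMC2 and NCAPH, the genes of largest change in NCI-H520, had differences of -0.12 (interval from -0.51 to 0.27) and 0.03 (interval from -0.38 to 0.45) with overlapping arrays.

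In Rh41 the only gene past both thresholds fell. NCAPG2 stood at 8.25, 8.17, 7.98, 8.11 and 8.12 in resistant arrays, against 8.88, 8.88 and 8.60 in parental arrays, a change of -0.66 on the narrower scale of this line (SE 0.11, adjusted p = 0.00130). No resistant array reached a parental one. Thus 0 of the 9 genes rose and 1 fell, where 5.69% of all clusters rose and 3.08% fell in Rh41, and the median change of the 9 genes was -0.12, beside -0.03 over all clusters.

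SMC3, SMC4 and NCAPD3 passed the adjusted p in Rh41 but not 1.5-fold, a size harder to reach on a narrower scale. SMC3 stood at 10.02, 10.27, 10.20, 10.28 and 10.19 in resistant arrays, against 9.59, 9.70 and 9.79 in parental arrays (difference 0.50, SE 0.10, adjusted p = 0.00483). SMC4 stood at 10.19, 10.43, 10.25, 10.25 and 10.32 against 10.75, 10.73 and 10.72 (difference -0.44, SE 0.09, adjusted p = 0.00584). NCAPD3 stood at 8.36, 8.07, 8.31, 8.42 and 8.60 against 8.01, 7.87 and 7.86 (difference 0.44, SE 0.12, adjusted p = 0.0251). The groups of all 3 genes were apart. How many of all clusters were apart in Rh41 was not counted, so this describes the arrays only. When the 20 arrays were normalized together, all 3 passed both thresholds, with changes of 0.78 for SMC3, -0.68 for SMC4 and 0.66 for NCAPD3. That step widens the Rh41 scale and so enlarges every difference in it, so passing 1.5-fold there is no separate support.

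The other 5 genes did not pass the adjusted p in Rh41. NCAPH had 8.99 to 9.25 in resistant arrays, against 9.26 to 9.57 in parental arrays, a difference of -0.25 (adjusted p = 0.138), and NCAPG had 9.42 to 9.66 against 9.66 to 9.87, a difference of -0.24 (adjusted p = 0.115). SMC2 had a difference of -0.12 (interval from -0.34 to 0.10), SMC1A one of -0.11 (interval from -0.31 to 0.09) and NCAPD2 one of 0.05 (interval from -0.16 to 0.27), each with overlapping arrays. NCAPD3 and SMC3 were thus the genes whose resistant arrays averaged higher in all 3 lines, though NCAPD3 passed both thresholds only in NCI-H520 and SJCRH30, and SMC3 only in NCI-H520.

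**Figure D3:**
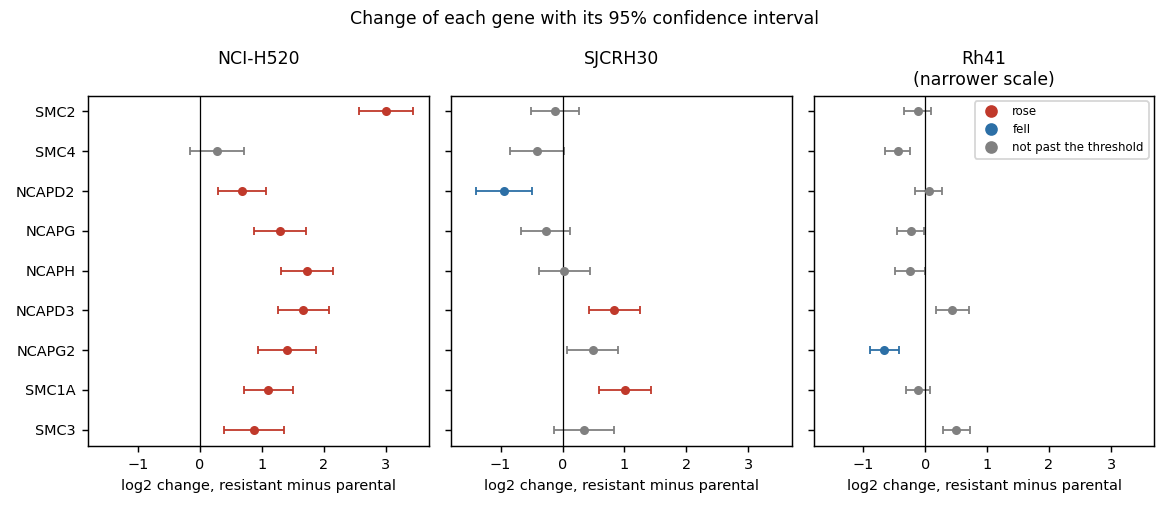
Log2 change of each gene, resistant minus parental, with its 95% confidence interval (horizontal axis) in NCI-H520, SJCRH30 and Rh41; red marks genes that rose, blue genes that fell and grey genes not past the threshold. In NCI-H520 8 genes rose, in SJCRH30 NCAPD2 fell by 0.94 while SMC1A and NCAPD3 rose, and in Rh41 NCAPG2 fell by 0.66 on its narrower scale.

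Whether the change differed between NCI-H520 and SJCRH30, which share a scale, was tested in a single fit of their 12 arrays. The change was higher in NCI-H520 for 6 of the 9 genes and lower for 0, where 11.8% of all clusters were higher and 11.3% lower by the same rule. SMC2 differed most, by 3.12 (SE 0.26, adjusted p = 1.40e-07), followed by NCAPH at 1.70 (SE 0.26), NCAPD2 at 1.62 (SE 0.27) and NCAPG at 1.57 (SE 0.25), whose adjusted p-values lay between 1.20e-04 and 2.13e-04. All 3 subunits that are found only in condensin I are among these. For the condensin II genes the differences were 0.92 for NCAPG2 (SE 0.28, adjusted p = 0.0251) and 0.83 for NCAPD3 (SE 0.26, adjusted p = 0.0255). NCAPG2 missed the threshold without replicate 2 of either NCI-H520 group (adjusted p = 0.0507 without the resistant and 0.0735 without the parental one), without resistant or parental replicate 1 of SJCRH30 (0.0644 and 0.0556) and without parental replicate 2 of SJCRH30 (0.0583), and NCAPD3 missed it without replicate 2 of any of the 4 groups (adjusted p from 0.0569 to 0.0720).

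The cohesin genes did not pass this test. For SMC1A, which rose in both lines, the difference of changes was 0.10 (interval from -0.44 to 0.64, adjusted p = 0.833), and for SMC3 it was 0.53 (interval from -0.16 to 1.21, adjusted p = 0.285). SMC4 had a difference of 0.69 (interval from 0.11 to 1.28, adjusted p = 0.0824), which passed with a trended, robust variance (adjusted p = 0.00886).

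In the sensitive lines the starting levels were unlike. Parental SJCRH30 was higher than parental NCI-H520 for 8 of the 9 genes and lower for 0, where 22.2% of all clusters were higher and 22.1% lower. The differences were 3.86 for SMC2 (SE 0.18), 3.20 for NCAPG (SE 0.17), 2.57 for SMC3 (SE 0.23), 2.19 for NCAPH (SE 0.19), 2.17 for NCAPG2 (SE 0.20), 1.95 for NCAPD2 (SE 0.19), 1.39 for SMC4 (SE 0.20) and 1.16 for SMC1A (SE 0.18), each with an adjusted p of 2.76e-05 or less. NCAPD3 was the exception, with means of 10.16 in parental SJCRH30 and 10.19 in parental NCI-H520.

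Between the resistant lines, SJCRH30 minus NCI-H520, the same distance was 2.04 for SMC3, 1.64 for NCAPG, 1.25 for NCAPG2, 1.06 for SMC1A, 0.74 for SMC2, 0.70 for SMC4, 0.50 for NCAPH and 0.33 for NCAPD2. NCAPD3 was 0.86 lower in resistant SJCRH30 than in resistant NCI-H520. These distances hold the same arrays as the changes above and are a description of the levels, with no test.

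Of the other genes of the pathway, 32 were measured. In NCI-H520 9 rose and 1 fell, in SJCRH30 2 rose and 10 fell, and in Rh41 1 rose and 1 fell, and the change was higher in NCI-H520 than in SJCRH30 for 13 and lower for 2. Over all clusters, 10.1% rose and 9.9% fell in NCI-H520, 9.42% rose and 9.28% fell in SJCRH30, and 5.69% rose and 3.08% fell in Rh41. For the difference of changes between NCI-H520 and SJCRH30, 11.8% of all clusters were higher and 11.3% lower. By the adjusted p alone, 1 of the 32 was higher and 8 were lower in Rh41, where 11.3% of all clusters were higher and 9.19% lower. Their median change was 0.22 in NCI-H520 and -0.35 in SJCRH30, against medians of 0.01 over all clusters in each line, and 0.02 in Rh41, against -0.03.

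Among partners of condensin on the mitotic chromosome, KIF4A, a chromokinesin that works beside condensin I on the chromosome axis, stood at 9.74, 9.47 and 9.98 in resistant NCI-H520 arrays, against 8.18, 7.50 and 8.02 in parental arrays, a change of 1.83 (SE 0.23, adjusted p = 1.62e-04). In SJCRH30 it stood at 10.09, 10.12 and 10.09 in resistant arrays, against 10.84, 11.18 and 11.57 in parental arrays, a change of -1.10 (SE 0.21, adjusted p = 0.00293). KIF4A thus rose in NCI-H520 and fell in SJCRH30, as NCAPD2 did. TOP2A, the topoisomerase that unlinks sister chromatids, rose in NCI-H520 by 1.65 (SE 0.21), with 13.98 to 14.23 in resistant and 12.17 to 12.80 in parental arrays, and had differences of 0.24 in SJCRH30 and -0.23 in Rh41 that did not pass.

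Of 14 regulators of cohesin (loading, release, acetylation and cleavage), 5 rose and 0 fell in NCI-H520 (10.1% and 9.9% of all clusters), and 1 rose and 6 fell in SJCRH30 (9.42% and 9.28%). CDCA5 (sororin, which keeps cohesin on replicated chromatids) stood at 9.77, 9.68 and 10.03 in resistant arrays, against 7.83, 8.19 and 8.44 in parental arrays, a change of 1.67 (SE 0.21). SGO2 rose by 1.63, SGO1 by 1.52, PTTG1 by 1.44 and ESCO2 by 1.57. The shugoshins SGO1 and SGO2 shield centromeric cohesin, PTTG1 (securin) holds back the protease that cuts cohesin, and ESCO2 acetylates SMC3 in S phase. The cohesin loaders NIPBL and MAU2, the release factor WAPL and its partner PDS5A had differences between -0.05 and 0.22 in this line, and none passed. STAG3, a subunit of meiotic cohesin, fell by 0.70 (SE 0.18, adjusted p = 0.0181).

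In SJCRH30 the genes that fell included both mitotic STAG subunits of cohesin. STAG2 stood at 13.10, 13.22 and 13.40 in resistant arrays, against 14.39, 14.78 and 14.55 in parental arrays, and fell by 1.33 (SE 0.19, adjusted p = 4.16e-04), and STAG1 fell by 0.86. The loaders NIPBL and MAU2 fell by 0.66 and 0.87, WAPL by 0.87 and PDS5A by 0.72. PTTG1 stood at 10.01, 10.26 and 10.08 in resistant arrays, against 11.64, 11.68 and 11.26 in parental arrays, and fell by 1.41, while HDAC8, the SMC3 deacetylase, fell by 1.15. SMC1A therefore rose in the line in which STAG1, STAG2 and the loaders fell. The rises were those of ESCO2, by 0.80, and SMC6, of the related SMC5/6 complex, by 0.80. SMC5/6 did not rise as a whole. Of 9 measured genes of SMC5/6 and SMCHD1, 1 rose and 1 fell, with a median change of -0.33. Over all clusters, 9.42% rose and 9.28% fell. The gene that fell, NSMCE4A, averaged 8.39 in resistant and 9.36 in parental arrays, a change of -0.96.

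In Rh41 the meiotic kleisin REC8 stood at 6.82, 6.46, 6.82, 6.33 and 6.37 in resistant arrays, against 5.35, 5.46 and 5.38 in parental arrays, a change of 1.16 (SE 0.13, adjusted p = 1.61e-04). ESCO2 stood at 6.29, 6.43, 6.41, 6.48 and 6.67 against 7.23, 6.74 and 7.24 and fell by 0.62 (SE 0.14, adjusted p = 0.00844). ESCO2 thus fell in Rh41 and rose in the other lines.

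**Figure D4:**
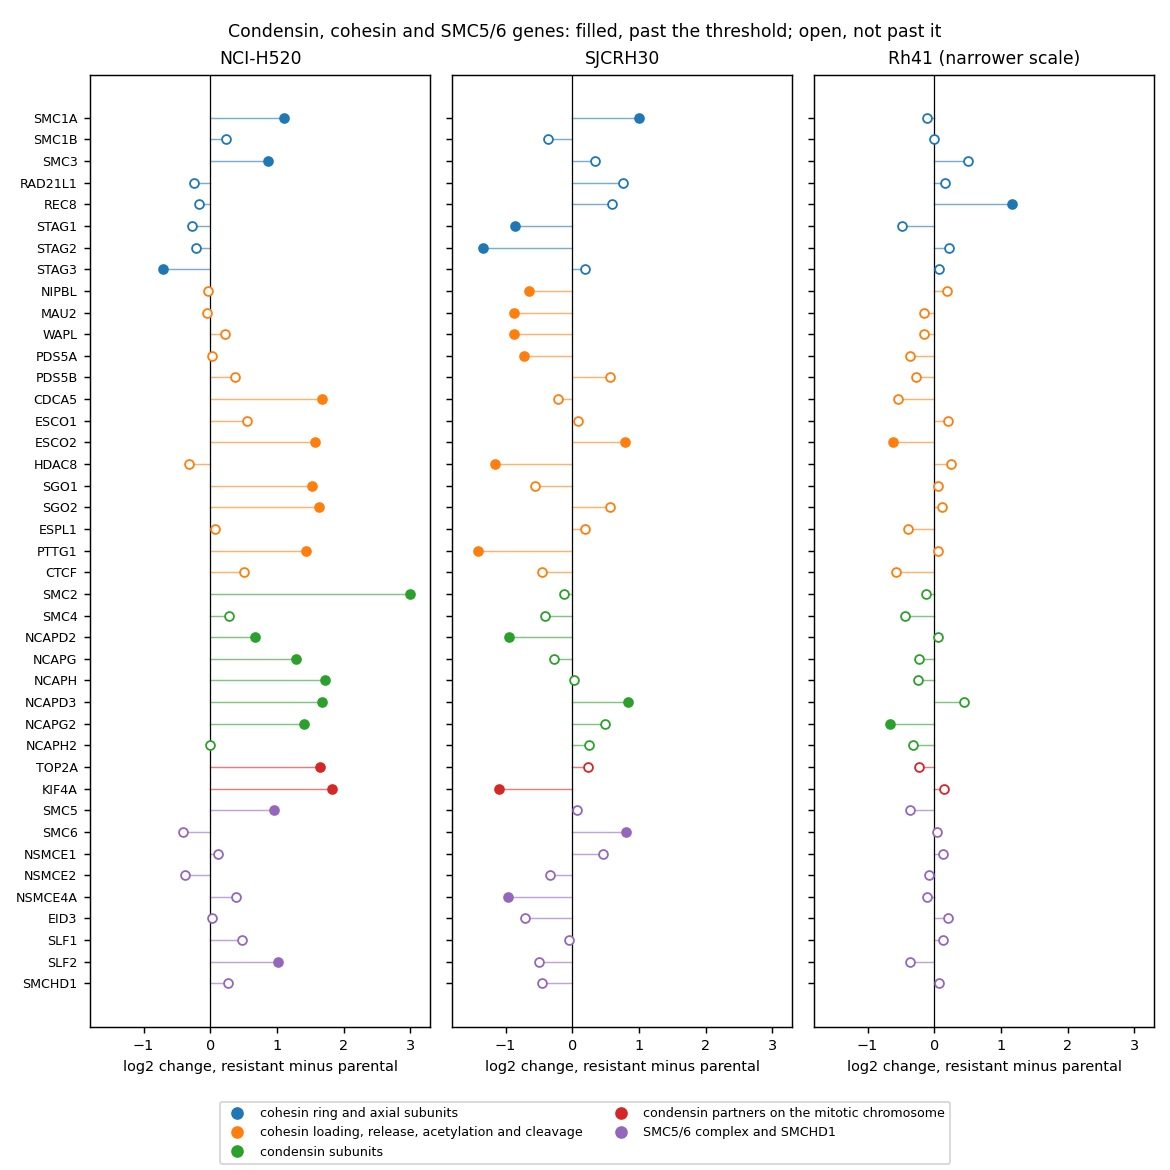
Log2 change, resistant minus parental (horizontal axis), of 41 measured genes of cohesin, its regulators, condensin, its mitotic partners and SMC5/6, coloured by role; filled points passed both thresholds and open points did not, and Rh41 has a narrower scale. The filled points lie right of 0 in NCI-H520 except STAG3, and mostly left of 0 in SJCRH30.

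Genes of the cell cycle moved in the same arrays. In NCI-H520, 18 of 19 proliferation and mitosis genes rose and 0 fell, and all 15 replication and S phase genes rose. Over all clusters in this line, 10.1% rose and 9.9% fell. The mean level of the proliferation list was 11.17 to 11.24 in the resistant arrays, against 9.78 to 9.94 in the parental arrays, and that of the S phase list 10.50 to 10.57, against 8.13 to 8.50. GINS2, which activates the replicative helicase, rose by 3.89 and MKI67, the Ki-67 antigen, by 1.53. Epithelial markers moved too, with 7 of 9 higher in resistant NCI-H520 arrays (mean level 12.38 to 12.50, against 11.14 to 11.33). A different share of cells in a phase of the cycle and a different amount of RNA per cell cannot be told apart in bulk RNA, and the part of these lists in the changes of the condensin and cohesin genes was not tested.

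In SJCRH30, 1 of the 19 proliferation genes rose and 8 fell, MKI67 by 0.93 and CCNA2 by 1.08, whereas 4 of the 15 S phase genes rose, with MCM6 changing by 1.40, and 0 fell. Of all clusters in SJCRH30, 9.42% rose and 9.28% fell. The mean level of the proliferation list was 11.74 to 11.87 in resistant arrays, against 12.02 to 12.14 in parental arrays, and that of the S phase list 11.63 to 11.72, against 11.32 to 11.37. Of 9 epithelial markers, 0 rose and 4 fell (mean level 5.45 to 5.74 in resistant arrays, against 6.13 to 6.24 in parental arrays). In Rh41, 1 of 19 proliferation genes rose (HMMR, by 0.65) and 1 fell (CCNA2, by 0.88), and of the S phase genes 0 rose and CCNE2 fell by 1.13, with MKI67 at a difference of -0.01. Of all clusters in Rh41, 5.69% rose and 3.08% fell. By the adjusted p alone, 1 of the 19 was higher and 6 were lower, and of the 15 S phase genes 0 were higher and 8 lower, with all 15 differences below 0. By the same rule, 11.3% of all clusters were higher and 9.19% lower. The mean level of the S phase list was 8.41 to 8.43 in resistant and 8.74 to 8.76 in parental Rh41 arrays.

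Over the 12 NCI-H520 and SJCRH30 arrays, with each line centred on its mean, the genes closest in pattern to NCAPG were CHRAC1 (Pearson r = 0.984), TPX2 (r = 0.982) and FAM111B (r = 0.981), and those closest to SMC3 were SLC39A8 (r = 0.945), GEN1 (r = 0.940) and H2AC13 (r = 0.935). SLC39A8 averaged 7.65 in NCI-H520 but 4.19, a low signal, in SJCRH30. The 12 points share the step between resistant and parental arrays of each line, so the correlations describe that step and have no test. TPX2 had a difference of 1.70 in NCI-H520 and of -0.50 in SJCRH30, and NCAPG had differences of 1.29 and -0.27, and neither gene passed both thresholds in SJCRH30.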

How the data were processed

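Total RNA from the cultures was hybridized to Clariom S arrays. The deposited values are log2 expression values that the authors made with RMA and quantile normalization; the RMA version and genome build were not given in the sources used here. No value was normalized again for the main tests. Of 21448 transcript clusters, the 3739 without exactly 1 gene symbol were left out. Resistant minus parental was tested two-sided within each line by limma 3.58.1 (R 4.3.3, lmFit then eBayes), and the difference of changes and the parental difference in 1 fit of 12 arrays. Benjamini-Hochberg adjustment ran over all 17709 clusters tested, and a gene rose or fell at an adjusted p under 0.05 and over 1.5-fold. The fits were tested on simulated data. The labels call arrays biological replicates. Named pathway genes are the 4 largest rises and falls per line past the threshold, with others added after their values were seen. The members and lists were chosen with earlier results of these data known. Promoters are those of RefSeq, and figures were drawn with matplotlib 3.10.9.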

Additional observations from a re-analysis of the deposited data

Results flagged for a closer look

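For 6 condensin genes the change in NCI-H520 differed from that in SJCRH30 by the test of the difference itself, on the log2 scale: SMC2 by 3.12, NCAPH by 1.70, NCAPD2 by 1.62, NCAPG by 1.57, NCAPG2 by 0.92 and NCAPD3 by 0.83. For NCAPD2 the direction was opposite as well, with a rise of 0.68 in NCI-H520 and a change of -0.94 in SJCRH30.

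NCAPG2 and NCAPH were flagged because every resistant Rh41 array lay on the other side of its parental arrays than in another line. The share of all clusters with such a pattern was not counted. NCAPG2 changed by -0.66 in Rh41, where all resistant arrays were lower, while all were higher in NCI-H520 (1.41) and in SJCRH30 (0.49, not past the threshold). NCAPH had a difference of -0.25 in Rh41, not past the threshold, and its nearest resistant and parental arrays there stood at 9.25 and 9.26. In NCI-H520 all of its resistant arrays were higher (1.73). Because Rh41 is on another scale, the difference of its changes from those of the other lines was not tested. No group had an array that stood apart from the others by Dixon's test, which could be applied only to the 5 resistant Rh41 arrays.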

How the results depend on the processing

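The counts of genes past the threshold were computed again without each array in turn, without clusters of low signal (mean log2 under 5), with a trended and robust variance, over all 21448 clusters, by adjusted p alone, with all 20 arrays normalized together and with the spread shared between lines. In NCI-H520 the count stayed between 7 and 8, in SJCRH30 it was 3 throughout, and for the parental difference it was 8 throughout. In Rh41 the count of 1 became 4 (2 higher and 2 lower) by adjusted p alone. The same 4 was reached with all 20 arrays normalized together, which widens the Rh41 scale, and with the spread shared after that. Without each array the Rh41 count stayed at 1. The number of genes whose change differed between NCI-H520 and SJCRH30 was 4 to 6 without each array and 7 with the trended and robust variance. Counting TTTAAA with TTTGAA raised the genes with CHR letters to 8 from 7.

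Arrays with the same replicate number paired weakly at most. The correlations of their deviations were 0.04 to 0.11 in NCI-H520, where each array correlated best with its own number. They were -0.01 to 0.12 in SJCRH30 and -0.18 to 0.28 in Rh41, where only replicate 1 of SJCRH30 and replicate 3 of Rh41 did so. With the replicate number as a block, the counts past the threshold were 8 (NCI-H520), 3 (SJCRH30) and 1 (Rh41), and 6 genes differed between NCI-H520 and SJCRH30. Signal over background was not given with the values, so how far the low levels of a gene are above background was not measured here.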

Other observations

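STAG2, the main STAG subunit of mitotic cohesin and a gene on the X chromosome, was at low signal in Rh41 and not in the other lines. It was singled out after its values were seen. STAG2 stood at 2.20, 2.66, 2.30, 2.05 and 1.89 in resistant Rh41 arrays, against 2.15, 2.05 and 1.81 in parental arrays. In NCI-H520 it stood at 13.29, 13.11 and 13.34 in resistant arrays, against 13.31, 13.57 and 13.51 in parental arrays. Normalizing all 20 arrays together gives them 1 distribution of values but does not remove differences of single genes between sets normalized apart. After it, the means of STAG2 were 2.58 in resistant and 2.39 in parental Rh41, 11.85 in resistant and 12.92 in parental SJCRH30, and 11.85 in resistant and 12.03 in parental NCI-H520. The difference between resistant and parental Rh41 arrays was 0.22 (SE 0.16, adjusted p = 0.388). STAG1, which can take the place of STAG2 in the complex, averaged 9.77 in resistant and 10.50 in parental Rh41 after the joint normalization, 8.30 and 9.002 in SJCRH30, and 8.73 and 8.95 in NCI-H520. These levels are listed by line, and Rh41 was not tested against the other lines. Whether the Rh41 cells lack STAG2 protein or carry an altered gene was not measured.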
